A study of Mus musculus with 3 samples.

Results

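A group of 8 genes of the mouse testis that encode small secreted proteins was described, namely the cystatins Cst8, Cst9, Cst12, Cst13 and Cstl1 and the beta-defensins Defb19, Defb33 and Defb36. They were taken by symbol from the gene lists of the count matrices, and all 8 of 8 were found among 32285 genes. The question was which of them mark Sertoli cells, the somatic nurse cells of the seminiferous tubule, and which mark spermatids, the haploid germ cells that become sperm. The cells came from a droplet single-cell RNA experiment on testes of adult C57BL/6N mice. The wildtype group held 2 libraries of 1 mouse each, called wildtype 1 and wildtype 2. The knockout group held 1 library, pooled from the testes of 2 conditional Tex10 knockout animals. Tex10 encodes a nuclear protein of a complex involved in ribosome biogenesis and gene control. The labels name neither the Cre line nor the deleted part of the gene, and the pooled library counts as 1 sample. The purpose of the series was to ask what Tex10 does in sperm formation.

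Cystatins are inhibitors of papain-like cysteine proteases such as the cathepsins. The subgroup studied here is expressed in the male reproductive tract, and several of its members lack residues that classical cystatins use to bind proteases. Cst8, also called cystatin-related epididymal spermatogenic protein or CRES, is known from sperm and from the first part of the epididymis, the duct in which sperm mature. Beta-defensins are small cationic peptides held together by disulfide bonds. They are best known as antimicrobial peptides of epithelia, and many of them are made in the testis and epididymis and coat sperm. Sertoli cells secrete much of the fluid and protein of the tubule, and spermatids pass from a round to an elongating form while transition proteins and then protamines replace histones.

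All 5 cystatins lie in 1 stretch of chromosome 2 in the GENCODE M21 annotation of GRCm38, from position 148750358 to 148838738, a length of 88.4 kb. It holds 7 protein-coding genes in the order Cstl1, Cst11, Cstdc1, Cst12, Cst8, Cst13 and Cst9. Every gene there but Cst11 lies on the plus strand. Cst12 spans 148789361 to 148793546, Cst8 spans 148798785 to 148805595, Cst13 spans 148820081 to 148830410 and Cst9 spans 148835147 to 148838738. The gap between Cst12 and Cst8 is 5238 bases, and that between Cst13 and Cst9 is 4736 bases. Defb19 (152576086 to 152580312, minus strand) and Defb36 (152604327 to 152612729, plus strand) lie further along chromosome 2, with Defb45 between them, in a stretch of 36.6 kb. Defb33 lies alone on chromosome 8, at 20892669 to 20897723 on the plus strand. No member overlapped a gene on the other strand, and of all 31-base words in the last 500 bases of the members' transcripts, where 3′ reads fall, 0 occurred in another gene. A pseudogene inside Defb36, Gm14163, has no row of its own in the matrices.

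The sequences before the start sites of 5 cystatins follow, since neighbours in this stretch were highest in different cell types. They are from RefSeq's promoter table for GRCm38.p6, which holds 7 of the 8 members (all but Defb19). Each is given 5′ to 3′ on the plus strand and ends where the earliest annotated transcript begins. Capitals mark exact matches, on either strand, to the motifs searched. Cst8, Cst13 and Cstl1 are the spermatid genes of the stretch, and Cst9 and Cst12 the Sertoli genes.
Cst8 (chr2:148798589-148798784): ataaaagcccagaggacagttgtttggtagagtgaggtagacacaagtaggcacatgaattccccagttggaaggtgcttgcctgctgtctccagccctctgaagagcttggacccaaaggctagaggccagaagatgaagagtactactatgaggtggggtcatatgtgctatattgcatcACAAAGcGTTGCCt
Cst13 (chr2:148819849-148820080): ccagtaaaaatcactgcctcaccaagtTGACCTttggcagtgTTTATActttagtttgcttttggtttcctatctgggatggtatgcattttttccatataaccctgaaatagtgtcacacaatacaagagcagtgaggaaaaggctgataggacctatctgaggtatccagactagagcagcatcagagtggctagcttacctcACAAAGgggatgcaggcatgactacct
Cstl1 (chr2:148750111-148750357): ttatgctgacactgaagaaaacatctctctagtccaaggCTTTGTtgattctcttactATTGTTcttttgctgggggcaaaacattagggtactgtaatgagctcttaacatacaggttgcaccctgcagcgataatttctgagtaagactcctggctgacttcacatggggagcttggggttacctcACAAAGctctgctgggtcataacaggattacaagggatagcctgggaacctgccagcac
Cst9 (chr2:148834897-148835146): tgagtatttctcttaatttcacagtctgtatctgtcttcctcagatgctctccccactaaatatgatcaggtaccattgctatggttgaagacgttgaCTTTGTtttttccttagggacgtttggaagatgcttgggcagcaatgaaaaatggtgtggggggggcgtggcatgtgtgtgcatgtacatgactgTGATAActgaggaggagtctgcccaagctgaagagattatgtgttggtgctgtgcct
Cst12 (chr2:148789115-148789360): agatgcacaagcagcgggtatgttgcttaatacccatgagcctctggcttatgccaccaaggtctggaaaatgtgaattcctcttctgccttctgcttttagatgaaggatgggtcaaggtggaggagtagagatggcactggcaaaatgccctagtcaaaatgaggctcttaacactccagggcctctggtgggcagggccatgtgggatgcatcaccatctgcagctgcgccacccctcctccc

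In all, 8 motifs were searched on both strands in the 250 bases before the RefSeq start. For SOX factors these were ACAAAG and, as a second core, AACAAT. For GATA factors they were AGATAA and, differing in its first base, TGATAA. For nuclear receptors the core AGGTCA was used, and for cAMP response elements the core TGACGT. For RFX factors the word was GTTGCC, and the TATA box was searched as TATAAA. None of these words overlaps another in the printed sequences. The first of them, ACAAAG, was found in 6 of the 7 members with a window, and in 16.5% of 32851 windows of the table. Cst12 was the member without it. In the 3 spermatid cystatins it stood on the plus strand near the start, with its first base at -68 in Cst8, -45 in Cst13 and -62 in Cstl1, counted from the RefSeq start. In all 3 it formed part of TCACAAAG, a longer word noticed only after the sequences were read. That word occurs in 1.67% of windows on either strand and in 0.852% on the gene's own strand. Cst9 held ACAAAG on the other strand, from -152, and TGATAA from -57, which 7.94% of windows hold. Defb36, a Sertoli gene, held ACAAAG on its own strand from -25, nearer the start than the spermatid cystatins. Defb33, a spermatid gene, held it only on the other strand, from -151. A match near the start was thus not confined to spermatid genes. AGGTCA was found in Cst8, Cst13 and Defb33 and in 14.0% of windows. The match in Cst8, from -46, lies after the earliest annotated start and so outside the printed stretch. GTTGCC was found in Cst8 (10.4% of windows), TATAAA in Cst13 (12.4%) and AACAAT in Cstl1 (9.42%). AGATAA (9.99% of windows) and TGACGT (6.47%) were found in 0 of the 7. These are matches of letters only.

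The 3 libraries held 33038 barcodes with 93418341, 96001773 and 147783171 unique molecular identifiers (UMIs, each a counted RNA molecule) in wildtype 1, wildtype 2 and the knockout library. After filters 26307 barcodes were kept. Cells were clustered without any cystatin or beta-defensin gene and named from marker genes. Of the kept barcodes, 54.0% lay in clusters of very low depth (54.5%, 39.6% and 63.7% of the 3 libraries), which were not counted among the named cell classes. One such cluster type, led by haemoglobin genes (4429 barcodes), carries RNA of many cell types at low level. It was used as a measure of free RNA, a use that was not tested. Of these barcodes, 301 formed a cluster also led by Crabp1 and Uchl1, which are markers of spermatogonia. Levels are given in CPM, the UMIs of a gene summed over the cells of a class and library, per 1000000 UMIs of those cells. Sertoli cells of usable depth were few, with 22, 14 and 51 cells, and all 13 of 13 Sertoli markers were detected in them. Their Sox9 level was 334 ± 43.6 CPM (SD, n = 3 libraries) against 0.43 in round and 0.19 in elongating spermatids. Pairs of libraries shared 27 to 30 barcodes. The plotted 95% intervals are exact Poisson intervals, which cover counting error only. Spreads are SDs over libraries. Nothing in the labels ties a library to a batch, and since the knockout group is 1 library no test was run.

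Tex10 itself was measured in every class and does not check the label, since the deleted part is not given and 3′ reads may lie outside it. In spermatogonia it stood at 143 and 125 CPM in the wildtype libraries and 131 CPM in the knockout library. In round spermatids it stood at 18.4, 21.4 and 12.9 CPM. The groups therefore rest on the labels, and the knockout library is the library labelled so.

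The 8 genes fell into 2 sets of 4. Cst9, Cst12, Defb19 and Defb36 were highest in Sertoli cells, and Cst8, Cst13, Cstl1 and Defb33 in spermatids. A gene was said to mark a class when, in each of the 3 libraries, it reached 5 CPM there and stood at least 4-fold above the next class with 1 CPM added. This was asked over 7 classes with at least 10 cells in every library. By that rule 4 members marked Sertoli cells, where 3.10% of 15270 tested genes did so, and the other 4 marked spermatids (round or elongating, the higher), where 7.32% did. Leydig cells, the steroid-making cells between the tubules, were not among the 7 classes because wildtype 1 had none left after doublet removal. They are described further on, and with them Defb19 and Cst8 would not meet the rule.

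**Figure D1:**
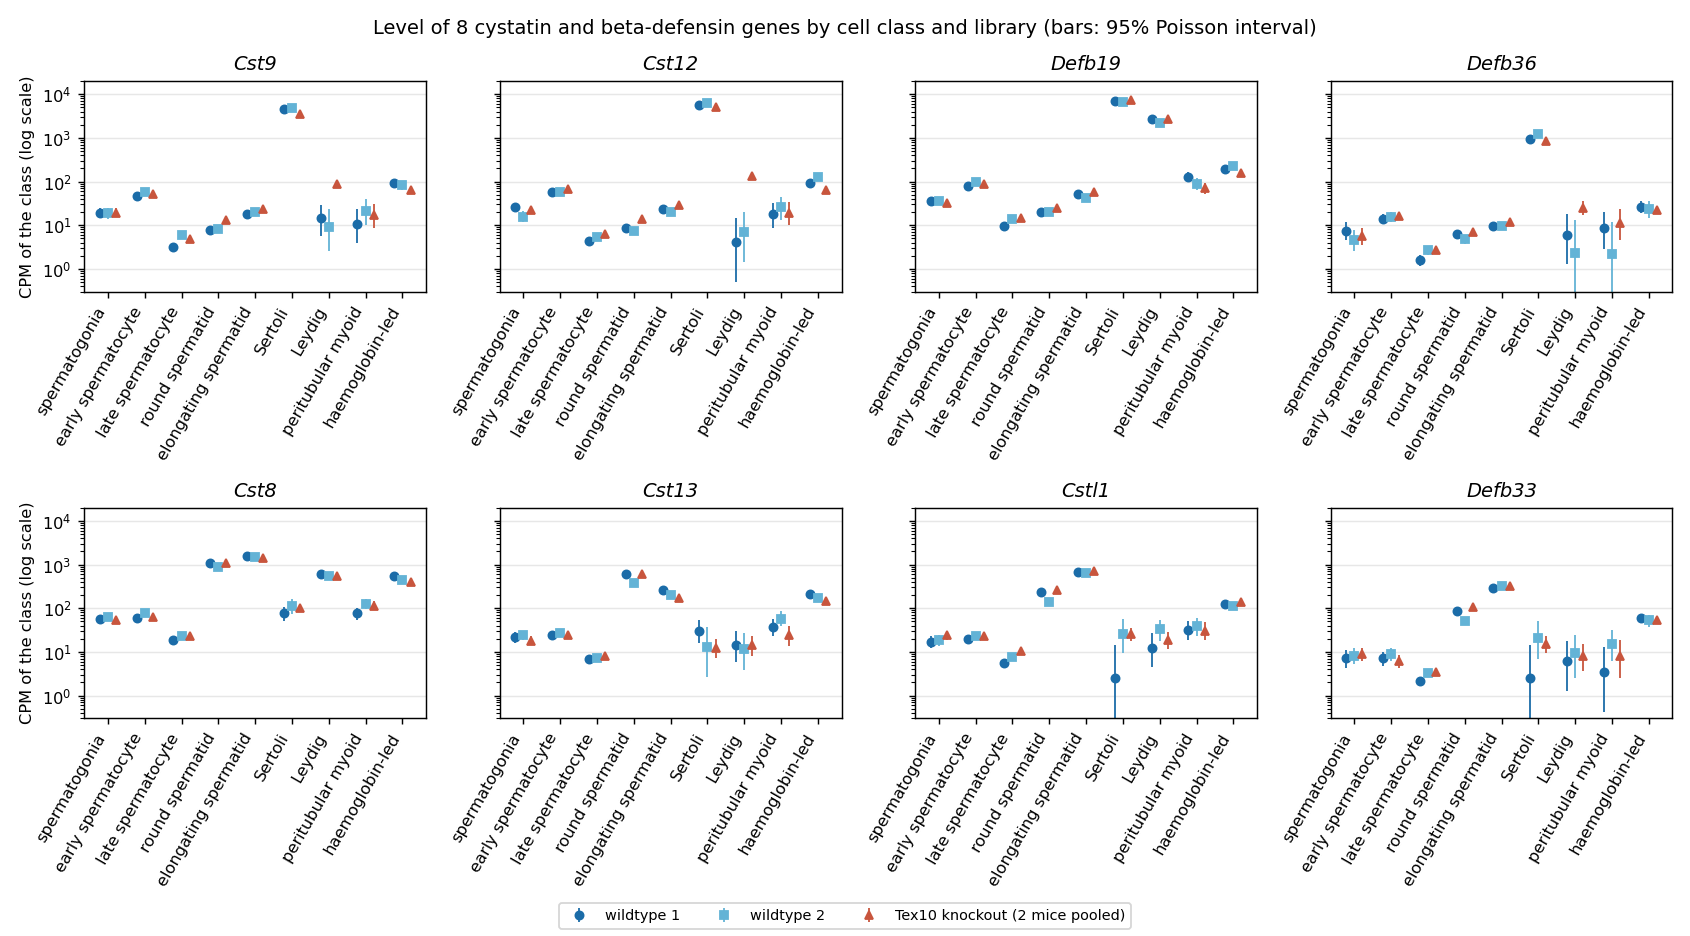
Level of each gene (vertical axis, CPM, log scale) in 8 cell classes and in haemoglobin-led barcodes (horizontal axis), with 1 point for each of the 3 libraries and bars for the 95% Poisson interval; Leydig cells are shown without doublet removal. The upper 4 genes peak in Sertoli cells and the lower 4 in spermatids, while Defb19 and Cst8 are also high in Leydig cells.

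Defb19 was the most abundant member in Sertoli cells, at 7156, 6575 and 7450 CPM in wildtype 1, wildtype 2 and the knockout library, a mean of 7060 ± 445. It ranked 6th, 8th and 7th of all genes there. In Sertoli cells it was 55.1- to 81.7-fold above the next of the 7 classes. Cst12 followed at 5533, 6242 and 4988 CPM, or 5588 ± 629, and Cst9 at 4478, 4853 and 3575 CPM, or 4302 ± 657. These 3 genes were thus within the 18 most abundant messages of a Sertoli cell in every library. Their folds over the next class were 73.5 to 107.5 for Cst12 and 68.5 to 92.5 for Cst9. Defb36 was lower, at 941, 1206 and 870 CPM (1006 ± 177), and ranked 86th, 55th and 97th. These levels hold for the deep cells only: with shallow barcodes counted as Sertoli cells the means were 4480 CPM for Defb19, 3131 for Cst12 and 2591 for Cst9. The fold of Defb36 over the next class was 51.4 to 73.1. Ordered by their lowest fold among the 474 genes that marked Sertoli cells, Cst12 came 8th, Cst9 12th, Defb19 24th and Defb36 29th.

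A Sertoli cell held on average 168 UMIs of Defb19, 121 of Cst12, 89.99 of Cst9 and 21.3 of Defb36. All 4 were detected together in 85 of 87 cells, with 21 of 22 in wildtype 1, 14 of 14 in wildtype 2 and 50 of 51 in the knockout library. After thinning every cell to 2000 UMIs, Cst9, Cst12 and Defb19 were still found in 100% of Sertoli cells in each library. Defb36 was then found in 72.7%, 78.6% and 70.6%. In elongating spermatids, which should lack these genes, the thinned share was 3.32% to 5.39% for Cst9 and 1.70% to 2.82% for Defb36. From cell to cell Cst12 ranged from 1693 to 10423 CPM over the 3 libraries and Defb19 from 2418 to 13405 CPM. Defb36 ranged from 0 to 3014 CPM, so it varied more in proportion than the other Sertoli members, at a lower count per cell.

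Outside Sertoli cells these 4 genes stayed low in the tubule. In CPM, though not per cell, their lowest level was in late spermatocytes. It was 4.67 ± 1.31 CPM for Cst9, 5.33 ± 0.93 for Cst12, 12.7 ± 2.76 for Defb19 and 2.32 ± 0.64 for Defb36. Early spermatocytes stood highest among germ cells for all 4 genes. Cst12 was there at 56.8, 57.1 and 66.8 CPM and Defb19 at 81.1, 97.6 and 90.2 CPM. In haemoglobin-led barcodes Cst12 stood at 94.3, 124 and 64.3 CPM and Defb19 at 190, 222 and 158 CPM. In each library these exceeded every germ cell class, with the exception of Cst12 in early spermatocytes of the knockout library. Per barcode Cst12 gave 0.605 UMIs in early and 0.257 in late spermatocytes, against 0.13 in the shallower haemoglobin-led barcodes and 121 in Sertoli cells. The part of free RNA in the germ cell values was not tested, and no germ cell expression is read from them.

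The 87 deep Sertoli cells held 22.2% (Defb36) to 35.2% (Cst12) of the 4 genes' UMIs among kept barcodes. A shallow cluster of 694, 468 and 935 barcodes held 36.4% (Defb19) to 43.3% (Defb36). It was led by Cst9, Defb36 and Cst12, although none of these was used in the clustering, and all 13 Sertoli markers were detected in it at a sum of 4385 to 5719 CPM. Markers of elongating spermatids summed to 34178 to 44840 CPM there, against 7257 to 15040 CPM in deep Sertoli cells, and their part in the lower levels was not tested. It gave 2900, 2342 and 1915 CPM for Cst12, 2461, 2194 and 1569 for Cst9, 4446, 3457 and 2992 for Defb19 and 816, 735 and 561 for Defb36. Here Defb36 was closer to the other members, with 0.28 to 0.31 UMIs per UMI of Cst12 against 0.17 to 0.19 in deep Sertoli cells. The 3028 barcodes left out for over 10% mitochondrial UMIs held 43.5% of all Cst12 UMIs, 40.8% of Cst9, 39.4% of Defb19 and 38.9% of Defb36. They also held 47.0% of the UMIs of Sox9. Of the spermatid members they held 0.76% (Defb33) to 1.55% (Cst13). The filter on mitochondrial share thus removed far more of the Sertoli members than of the spermatid members.

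Without doublet removal, barcodes with Sertoli markers formed a Clu-led cluster of 242, 177 and 302 barcodes and a Defb36-led cluster of 534, 313 and 777. The 4 members did not split alike. Cst12 stood at 4540, 3878 and 3722 CPM in the Clu-led cluster and 2141, 1659 and 1512 in the other. Defb36 stood at 829, 819 and 709 CPM against 780, 794 and 542, and its ranges overlapped. Ctsl, the gene of cathepsin L and a strong Sertoli message, stood at 6370, 5380 and 5679 CPM against 972, 805 and 872, and Sox9 at 205, 191 and 180 against 19.0, 20.7 and 14.4. The Defb36-led barcodes also held more Prm2 (9823 to 13932 CPM against 5587 to 8367), the gene of protamine 2. Its part in the lower values was not tested.

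Among the spermatid members Cst8 was the most abundant. In elongating spermatids it stood at 1560, 1489 and 1448 CPM in wildtype 1, wildtype 2 and the knockout library, a mean of 1499 ± 56.6, and ranked 85th, 91st and 94th of all genes. In round spermatids it stood at 1090, 886 and 1063 CPM (1013 ± 111). It was 11.9- to 20.3-fold above the next of the 7 classes. Cstl1, a cystatin-like gene, stood at 677, 631 and 700 CPM in elongating spermatids (670 ± 35.1) and at 235, 138 and 267 in round ones, with a fold of 15.97 to 22.4. Defb33 stood at 297, 324 and 325 CPM (315 ± 15.7) against 85.8, 51.7 and 106, with a fold of 14.6 to 36.5. For these 3 genes the elongating class was higher in every library, with no overlap.

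Cst13 ran the other way by class mean. It stood at 597, 386 and 595 CPM in round spermatids (526 ± 122) and at 254, 206 and 169 in elongating ones (210 ± 42.6). Neither class was uniform. Cst13 stood at 153, 144 and 128 CPM in a Tex36-led round cluster and 1270, 1147 and 1127 in a Hemgn-led one. In a Col16a1-led elongating cluster it stood at 1144, 1022 and 871 CPM, and in the other elongating clusters at 25.9 to 65.7 CPM. With the stricter cell filter its mean in round spermatids was 271 CPM. Its fold over the next class was 6.57 to 23.2, in proportion the widest range of the 8 genes, and the low end came from wildtype 2, where peritubular myoid cells stood at 57.9 CPM. By lowest fold among the 1118 genes that marked spermatids, Cstl1 came 16th, Defb33 41st, Cst8 120th and Cst13 530th. In CPM all 4 were at their lowest in late spermatocytes, the class before. They stood there at 21.9 ± 2.85 CPM for Cst8, 7.45 ± 0.71 for Cst13, 7.85 ± 2.35 for Cstl1 and 2.94 ± 0.69 for Defb33. This was the deepest named class, and per cell it held 1.05, 0.358, 0.383 and 0.141 UMIs of these genes. Each value was above those in spermatogonia and early spermatocytes, which for Cst8 were 0.695 and 0.648. Haemoglobin-led barcodes held Cst8 at 402 to 533 CPM, or 0.729 UMIs per barcode. Mean levels in spermatogonia, early spermatocytes, Sertoli and myoid cells were 57.1 to 105 CPM, and neighbours in their order overlapped between libraries. Per cell, Cst8 gave 0.627 to 0.695 UMIs in the 3 of these classes other than Sertoli cells, close to the haemoglobin-led value, and 2.23 in the deeper Sertoli cells, against 32.3 in round spermatids.

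Spermatids were then put in order by the share of their UMIs that came from Prm2, which rises as spermatids mature, and cut into 20 bins of equal cell number. The first 5 bins held mostly round spermatids. Acrv1, an acrosome gene of round spermatids, stood at 642 ± 24.2 CPM in bin 1 and 29.7 ± 16.2 in bin 6. Tnp1, the gene of transition protein 1, peaked in bin 12. Along this order the peaks ran from Cst13 to Defb33, with those of Cst8 and Cstl1 close together between them. Cst13 peaked first, with 402 ± 16.4 CPM in bin 3 and a peak of 1332 ± 117 in bin 6. It was above 50% of its peak only from bin 4 to bin 7 and was down to 40.6 ± 6.6 CPM by bin 10. Its peak lay in bin 6, 5 and 6 in wildtype 1, wildtype 2 and the knockout library. Of the cells in bin 6, 68.9% were elongating spermatids.

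Cst8 was already high in the first bin, at 489, 418 and 397 CPM, where Cstl1 stood at 5.76 to 7.22 CPM and Defb33 at 2.78 to 4.01. It peaked at 2211 ± 112 CPM in bin 8 (bins 8, 7 and 9 by library), held 50% of the peak from bin 4 to bin 13, and ended at 274 CPM. Cstl1 peaked at 1071 ± 34.7 CPM in bin 9, the same bin in all 3 libraries, and held 50% from bin 5 to bin 12. Defb33 peaked latest and lasted longest, at 414 ± 22.8 CPM in bin 12 (bins 13, 12 and 11) with 50% held from bin 5 to bin 15. Its peak fell in the bin of the Tnp1 peak. In the last bin Cst13, Cstl1 and Defb33 were at 33.9, 39.5 and 11.7 CPM. Prm2 alone took 20.9% of UMIs there, which lowers every other gene's CPM. With protamine and transition protein genes left out of the total, the peaks stayed in bin 6 for Cst13, bin 9 for Cstl1 and bin 12 for Defb33, and that of Cst8 moved from bin 8 to bin 9. The place on this axis is a Prm2 share and not a time.

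**Figure D2:**
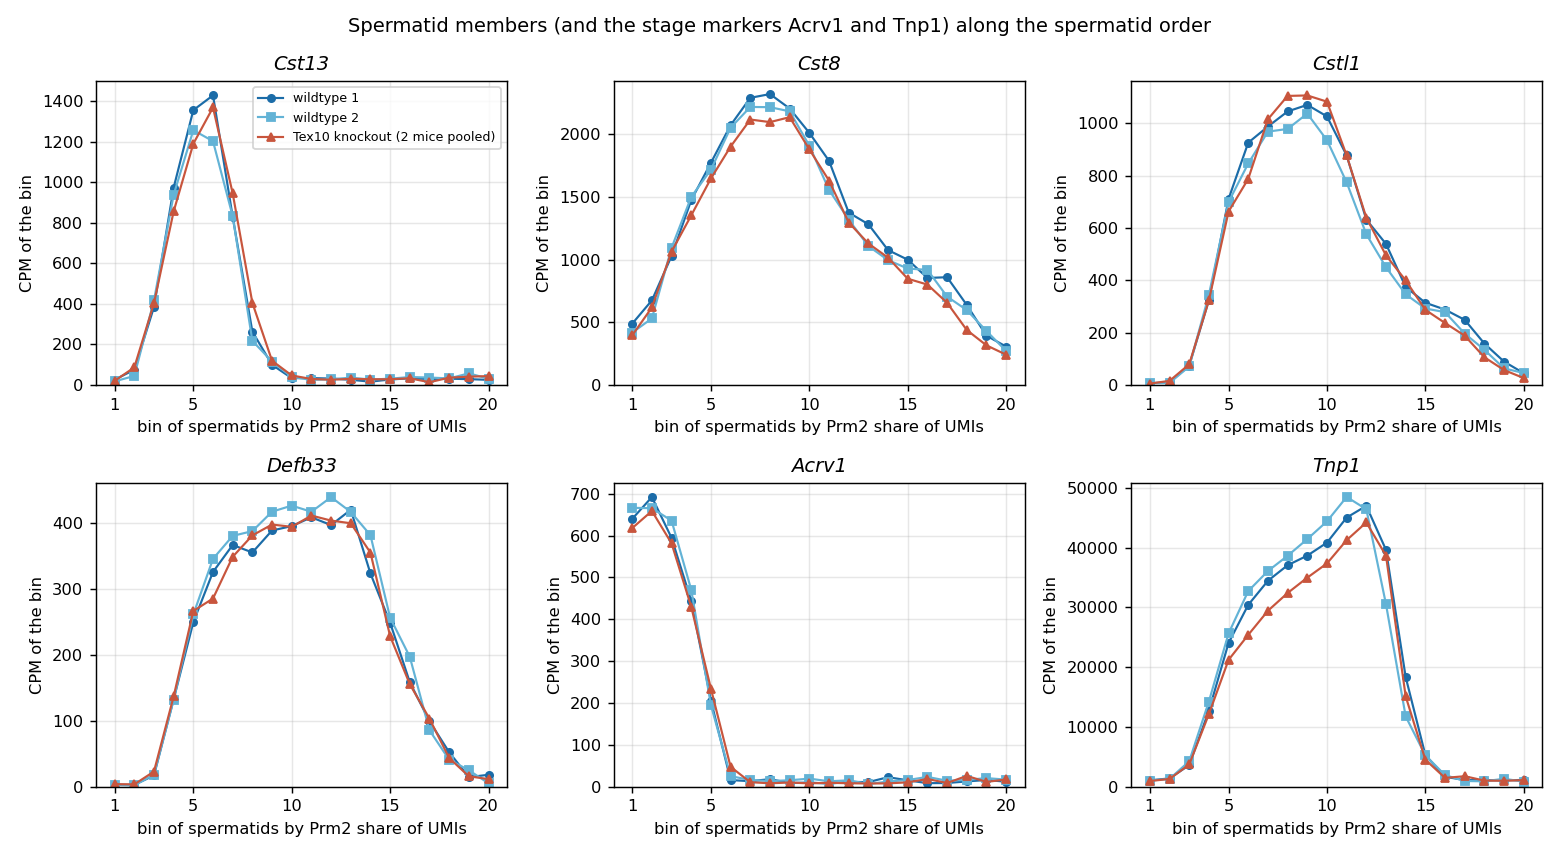
CPM (vertical axis, linear) of Cst13, Cst8, Cstl1 and Defb33 and of the stage markers Acrv1 and Tnp1 in 20 bins of spermatids ordered by Prm2 share (horizontal axis), with 1 line per library. Cst13 forms a narrow peak at bin 6, Cst8 and Cstl1 peak at bins 8 and 9, and Defb33 holds a plateau to bin 13 before it falls.

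A shallow cluster of 487 barcodes (132, 69 and 286) stood apart for its spermatid members. It was led by Prss52, Prss58 and Impad1, and Cst13 and Cst8 were among its 10 leading genes although neither had been used in the clustering. Its best-scoring class was round spermatid, with 12 markers of that class detected, but the naming rule left it unnamed. Its median depth was 1643 UMIs. Cst8 reached 7773, 6273 and 6399 CPM there, 14.4- to 15.9-fold above haemoglobin-led barcodes of like depth and 2.83- to 3.35-fold above the highest spermatid bin of the same library. It ranked 7th, 8th and 8th of all genes. Spermatids are far deeper, and per barcode the order differed. Cst8 gave 11.2, 9.65 and 13.1 UMIs here, against 32.3 per round and 20.4 per elongating spermatid. Cst13 gave 4.98, 4.55 and 4.71 UMIs, against 16.9 per round and 2.77 per elongating spermatid. Cst13 reached 3455, 2958 and 2306 CPM, which was 15.4 to 17.0 times the haemoglobin-led level and 1.69 to 2.42 times the highest bin. Cstl1 stood at 1252, 1149 and 1059 CPM, close to its highest bin (0.96 to 1.17 times). Defb33 stood at 273, 283 and 318 CPM, below its highest bin (0.64 to 0.77 times). Prm2 was only 1.38 to 1.70 times and Acrv1 0.79 to 1.22 times the haemoglobin-led level. Cst9, Cst12 and Defb19 were below the haemoglobin-led level in every library, and Defb36 was 1.19 to 1.82 times it, on 3 to 18 UMIs.

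Leydig cells gave the exception to the split. All 25 Leydig cells of wildtype 1 had doublet scores in the top 8% of their library and were left out with them, while the 26 and 49 cells of the other libraries were kept. The values that follow are from the 100 cells without doublet removal. Defb19 stood at 2721, 2168 and 2652 CPM (2514 ± 301), with at least 2 UMIs in each of the 100 cells and a median of 51.5. Sertoli cells exceeded this 2.63-, 3.03- and 2.81-fold. Cst8 stood at 594, 551 and 539 CPM (562 ± 29.1), with a UMI in 95 of 100 cells and a median of 9. This was 7.76, 4.94 and 5.33 times the level in Sertoli cells, and spermatids exceeded it 2.62-, 2.70- and 2.68-fold. Among the Leydig cells kept after doublet removal and thinned to 2000 UMIs, Cst8 was found in 15 of 25 cells of wildtype 2 and 21 of 48 of the knockout library. It was found in 9.80% to 18.2% of Sertoli cells thinned alike.

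The other spermatid members were low in Leydig cells, at 13.4 ± 1.56 CPM for Cst13, 21.2 ± 10.4 for Cstl1 and 7.84 ± 1.60 for Defb33. Their levels in Sertoli cells were 18.5 ± 10.2, 17.8 ± 13.3 and 13.03 ± 9.59 CPM. The median Leydig cell held 433 CPM of Cst8 and 737 of Prm2, while in elongating spermatids Prm2 stood at 96379 CPM against 1499 for Cst8. Likewise Defb19 was not joined by Cst12 (4.09 and 6.98 CPM in the wildtype libraries) or Defb36 (6.13 and 2.33). In the knockout library Cst12 stood at 137 CPM in Leydig cells, on 152 UMIs of which 66 came from 1 cell. In the 75 Leydig cells kept after doublet removal, all 8 Leydig markers were detected at a sum of 15779 to 19308 CPM. Sertoli markers summed to 719 to 1062 CPM there, against 14810 to 16000 CPM in Sertoli cells, and markers of elongating spermatids to 6595 to 13032 CPM. Single cells carried much of the latter: of 2432 Prm2 UMIs in wildtype 2, 278 remained without the top cell, and of 3006 in the knockout library 1325 remained. Of 10 markers of epididymal epithelium, where Cst8 is also known, 9 had 0 UMIs in these cells. The part of RNA from other cells in the Leydig values was not tested.

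**Figure D3:**
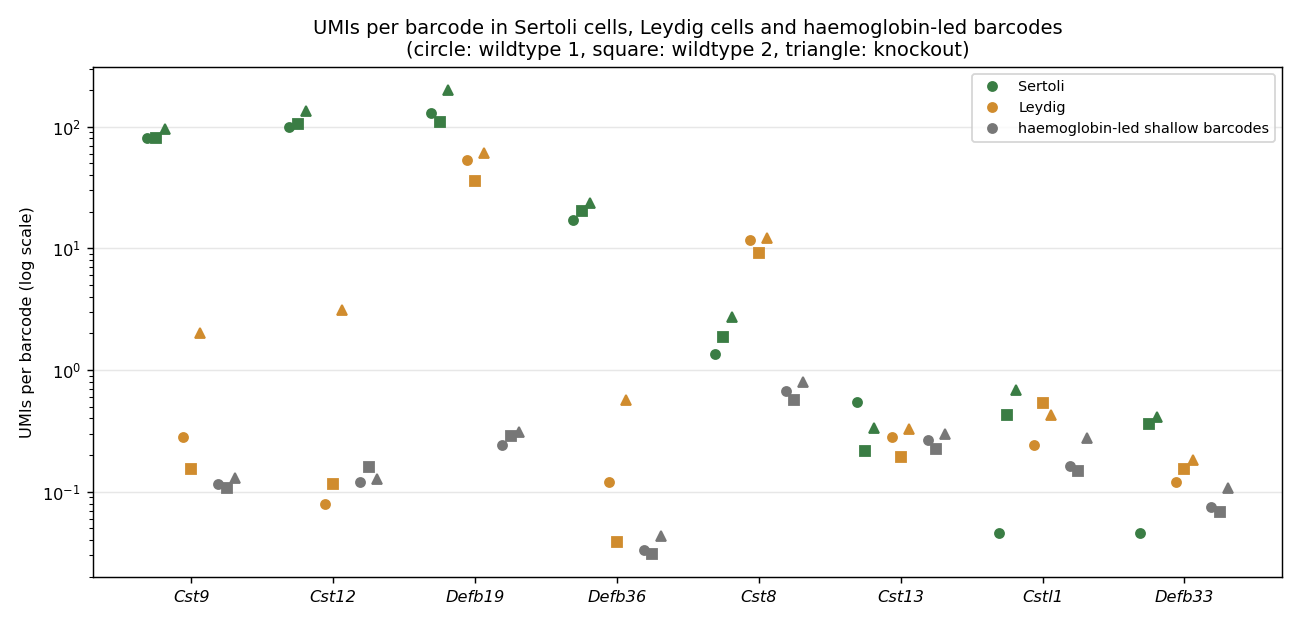
UMIs per barcode (vertical axis, log scale) of the 8 genes (horizontal axis) in Sertoli cells (green), Leydig cells without doublet removal (orange) and haemoglobin-led shallow barcodes (grey), with circles for wildtype 1, squares for wildtype 2 and triangles for the knockout library. Defb19 is high in both somatic classes, Cst8 is higher in Leydig than in Sertoli cells, and Cst9, Cst12 and Defb36 are far higher in Sertoli than in Leydig cells.

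Over 21 points (7 classes in 3 libraries), the Pearson correlation of log2(CPM + 1) was 0.967 to 0.998 among the 4 Sertoli members and 0.828 to 0.968 among the 4 spermatid members. It was -0.257 to -0.0118 between a member of the first set and one of the second. Points of a class share their cell type and points of a library share its free RNA, so these values are a description. Cst9 and Cst12 were each other's most similar gene of 11377 compared (r = 0.998). Next to both came 1700011M02Rik and 1700018G05Rik, transcripts at 837 and 865 CPM in Sertoli cells. Defb19 was most like Etd (0.992) and Defb36 most like Folr1 (0.986), a folate receptor gene. Cst8 was most like Tex35 (0.994), H1fnt (0.992), a spermatid linker histone gene, and Iqcf1 (0.992). Cst13 was most like Ccdc185 (0.992), Adig (0.987) and Trp53tg5 (0.987), which are likewise higher in round than in elongating spermatids. Cstl1 was most like Spata32 (0.976), Gm5893 (0.976) and Tnp2 (0.975), the gene of transition protein 2. Defb33 was most like 1700029B22Rik (0.995), Spata32 (0.990) and 1700031F10Rik (0.982).

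Most other genes of both families were low in these cells. Of 39 other beta-defensin genes in the matrices, 22 had under 10 UMIs in all barcodes, 13 of them 0, and 7 reached 5 CPM in a class of every library. Defb45, which lies between Defb19 and Defb36, marked Sertoli cells at 553 ± 178 CPM. It was the only 1 of the 39 to do so, where 3.10% of all tested genes did. That stretch is bounded by Defb19 and Defb36, so nothing is read from it about beta-defensins around it. Defb30 marked spermatids, as 7.32% of all tested genes did, and was higher in round (58.1 ± 7.80 CPM) than in elongating ones. These counts are not read as a result about the beta-defensins. Of 22 other cystatin-family genes, 7 had under 10 UMIs, 2 of them 0. Cstdc1, next to Cst12, marked Sertoli cells at 342 ± 73.3 CPM. Read along chromosome 2, the stretch thus ran spermatid (Cstl1), Sertoli (Cstdc1, Cst12), spermatid (Cst8, Cst13) and Sertoli (Cst9), with Cst11 between the first and second of these. Cst11 had only 35 UMIs in all barcodes, of which Leydig cells held 6 in wildtype 2 (14.0 CPM) and 8 in the knockout library (7.19 CPM), and it was at 0 in deep Sertoli cells. Cst3, the gene of the general inhibitor cystatin C, was highest in somatic cells, at 5319 CPM in Leydig, 1711 in myoid and 1512 in Sertoli cells. It also stood at 480 CPM in early spermatocytes and 299 in spermatogonia, against 42.3 to 57.6 CPM in haemoglobin-led barcodes. In shallow macrophage barcodes it stood at 5498, 8267 and 4951 CPM. Cstdc2 (913 CPM) and Cstb (562 CPM), the gene of the intracellular cystatin B, were highest in Leydig cells among the named deep classes, as means of the 2 libraries that kept such cells.

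Among 8 cysteine proteases of the kind that cystatins bind, 2 marked Sertoli cells, where 3.10% of all tested genes did so. Ctsl was among the markers used to name the Sertoli class, so its place in this count was largely set beforehand. The count is therefore not read as a result about proteases. Ctsl stood at 8016 ± 102 CPM, above every member, and Lgmn, the gene of legumain, at 332 ± 26.2. Ctsb, the gene of cathepsin B, stood at 718 CPM in Leydig cells and 139 CPM in Sertoli cells, and at 1092, 1713 and 953 CPM in a shallow macrophage cluster of 19, 16 and 60 barcodes. None of the 8 proteases marked spermatids, where 7.32% of all tested genes did so, and nothing is read from that count. Ctsl stood at 8.42 CPM in round and 16.9 in elongating spermatids.

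The knockout library was compared with each wildtype library by size. After 1 CPM was added to each level, log2 ratios had to reach 1 in size against both wildtype libraries and in the same direction. They also had to be 2 or more times as large as the difference that separated wildtype 1 from wildtype 2 on that scale, and the level had to reach 20 CPM. No member met this in any class. The counts were 0 of 5 members with enough UMIs in spermatogonia, 0 of 6 in early spermatocytes, 0 of 1 in late spermatocytes, 0 of 5 in round spermatids, 0 of 7 in elongating spermatids, 0 of 6 in myoid cells and 0 of 8 in shallow Sertoli barcodes. Over all genes the shares were 0.351%, 0.228%, 0.894%, 1.18%, 1.37%, 2.40% and 0.860% in the same order. At such shares a count of 0 is not a result about these genes. The 22, 14 and 51 deep Sertoli cells were too few for the rule, and their values are given as such.

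In round spermatids the log2 ratios of Defb33 were 0.30 and 1.02 against wildtype 1 and wildtype 2, the only ratio past 1 among the tested members of that class, and those of Cstl1 were 0.18 and 0.95. The make-up of this class differed between libraries. Its earlier, Tex36-led cluster held 197, 467 and 263 cells and its later, Hemgn-led cluster 186, 171 and 262. Within the Tex36-led cluster Defb33 stood at 8.65, 6.86 and 9.78 CPM and Cstl1 at 35.9, 26.3 and 26.1. Within the Hemgn-led cluster Defb33 stood at 203, 193 and 215 CPM and Cstl1 at 537, 489 and 540. The part of the make-up in the ratios of the class was not tested. Cst13 in elongating spermatids was below both wildtype libraries as a class (log2 of -0.58 and -0.28), and within its Col16a1-led cluster it stood at 1144, 1022 and 871 CPM. It was also lowest in the knockout library in both round clusters (153, 144 and 128 CPM, then 1270, 1147 and 1127) and in the Tnp1-led cluster (65.7, 58.8 and 56.9 CPM). In the other 2 elongating clusters the knockout value lay between the wildtype ones (25.9, 34.3 and 29.1 CPM, then 36.1, 41.5 and 37.3). Along the Prm2 order, however, Cst13 in the knockout library was above both wildtype libraries in 8 bins, below in 4 and between them in 8.

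Cst8 was below both wildtype libraries in 15 of 20 bins along the order and between them in 5, with log2 ratios to the wildtype mean from -0.49 to 0.04. The wildtype libraries differed from each other by up to 0.34 on that scale. Cstl1 was above in 8 of 18 bins with enough UMIs and below in 9, and Defb33 was above in 4 of 17 and below in 6. The peak bins of the 4 genes differed by at most 2 between libraries.

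Among the Sertoli members Cst9, Cst12 and Defb36 were each lower in the knockout library than in either wildtype library in deep and shallow Sertoli barcodes. In an unnamed cluster of 98 barcodes led by Defb36, which also held Sertoli members, Cst9 was highest in the knockout library (412, 370 and 659 CPM). Cst12 was also highest there in the knockout library, and Defb36 lay between the wildtype libraries. In deep Sertoli cells Cst9 was 0.77 times the wildtype mean (log2 of -0.32 and -0.44 against the 2 libraries) and in shallow Sertoli barcodes 0.67 times (-0.65 and -0.48). In the barcodes over 10% mitochondrial UMIs, which entered neither class, it stood at 1791, 2106 and 1590 CPM. Measured against another Sertoli message in the same barcodes, Cst9 gave 0.56, 0.60 and 0.45 UMIs per UMI of Ctsl in deep cells, 0.94, 0.83 and 0.82 in shallow ones and 0.74, 0.69 and 0.62 in those over the mitochondrial limit. Per UMI of Rhox8, a Sertoli homeobox gene, it gave 3.96, 3.70 and 3.25, then 6.35, 5.19 and 4.33, then 4.68, 4.68 and 3.64. Cst12 was 0.85 and 0.73 times and Defb36 0.81 and 0.72 times the wildtype mean in deep and shallow barcodes, while Defb19 was 1.09 times in deep and 0.76 times in shallow ones. For Cst9 per UMI of Defb36 in deep cells, the knockout value (4.11) lay between those of wildtype 1 (4.76) and wildtype 2 (4.02). In shallow barcodes this ratio was 3.02, 2.99 and 2.80. In those over the mitochondrial limit it was 3.16, 3.19 and 3.01, so the knockout library was lowest in both. The ratios in the 3 sets of barcodes come from the same 3 libraries and do not replicate each other. Median depth was higher in the knockout library in each set, for example 25466 against 16799 and 16166 UMIs in deep cells, and its part in the difference was not tested.

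**Figure D4:**
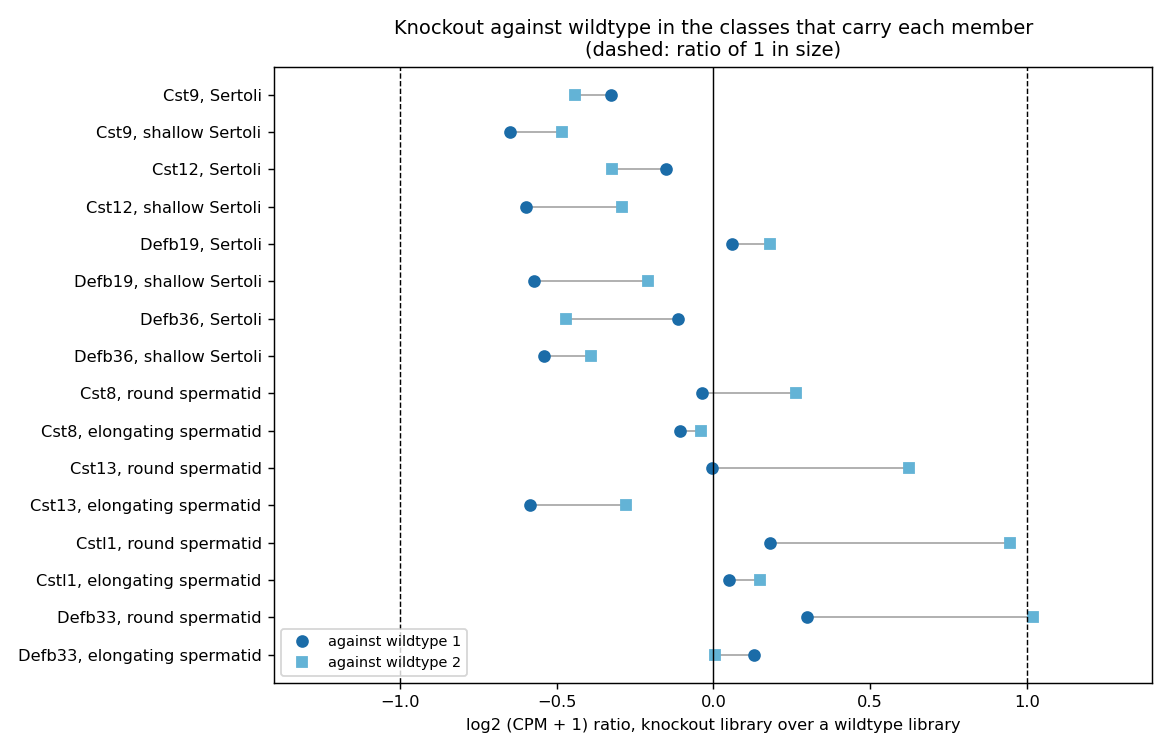
log2 ratio of CPM + 1 in the knockout library over each wildtype library (horizontal axis; circles for wildtype 1, squares for wildtype 2) for each gene in the 2 classes that carry it (vertical axis), with dashed lines at a log2 ratio of 1 in size. No gene passes the dashed line against both wildtype libraries, and Cst9, Cst12 and Defb36 lie left of 0 in both kinds of Sertoli barcodes.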

How the data were processed

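The authors deposited filtered 10x matrices of raw UMI counts per gene and barcode for 3 libraries. Per the submitters' processing notes they used Cell Ranger 4.0.0, Seurat 4.0.5 and the mm10 build. The annotation and strand setting used for counting are not given in the sources used here.

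Barcodes passed (28485) with 1000 or more UMIs, 500 or more detected genes and a mitochondrial share up to 10%, and the top 8% of Scrublet scores per library were left out, since Scrublet's automatic threshold marked only 0, 1 and 0 barcodes. Clustering used scanpy 1.11.5 (2000 variable genes, 30 components, 15 neighbours, leidenalg 0.10.2 at resolution 1). A cluster was named from its markers, and its name was withheld where its score led the next class by under 0.15, a limit set after seeing the data. Clusters whose median depth was under 3 times the library's smallest barcode were kept apart as shallow. The 2 wildtype libraries differed by more than sampling noise (chi-square per degree of freedom 17.7).

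The planned diffusion pseudotime put late spermatocytes after spermatids, and the order by Prm2 share replaced it after the data were seen. The fold and size rules were tested on simulated data. The genes, lists and rules were chosen with earlier results of these data known. Named besides the 8 members are Tex10, family and protease genes that met the rule or were most abundant, the 3 most similar genes of each member, and defining markers. Genes named for other reasons (Clu, Prss52 and other leading genes of clusters) were chosen after their values were seen. Alternatives covered filters, doublets, clustering, rules and leaving out each library.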

Additional observations from a re-analysis of the deposited data

How the results depend on the processing

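All 4 Sertoli and all 4 spermatid members met the rule again at resolution 2, with each cell weighted equally, with 0.1 CPM added and with other minimum levels. Members marking spermatids fell to 2 without doublet removal, where Cst8 was 2.59-fold above Leydig cells and Cstl1 3.38-fold above a cluster named myoid. They fell to 2 when low-UMI clusters were named too (Cst8 and Cst13 were lost to haemoglobin-led barcodes), also with family genes kept in the clustering. Naming low-UMI clusters without doublet removal, or with the stricter cell filter, left 0; these paired settings were added after seeing the data. In each of these settings all 4 Sertoli members kept the rule, or 3 where Leydig cells entered (Defb19 was lost); the deep Sertoli class was absent, and gave no value, under the stricter filter, without doublet removal and with family genes kept, each taken alone. The mean levels in Sertoli cells ranged over all settings from 1261 to 4666 CPM for Cst9, 1517 to 5888 for Cst12, 2231 to 7303 for Defb19 and 434 to 1074 for Defb36. The lowest of each came with the stricter cell filter and low-UMI clusters named. Cst13 in round spermatids ranged from 271 CPM (stricter cell filter) to 709 (each cell weighted equally). Leaving out 1 library gave 3 to 4 members for either class, the 3 being without wildtype 1, which lets Leydig cells in (Defb19 and Cst8 were lost). At 10-fold Cst13 was lost. By the size rule, leaving out 1 wildtype library gave 0 to 1 members in round spermatids (Defb33) and 0 to 1 in myoid cells (Cst13), the 1 each without wildtype 1. Of the counts over all genes, those marking Sertoli cells ranged from 94 to 896 around 474 and those marking spermatids from 17 to 2104 around 1118. Size-rule counts over all genes ranged from 16 to 103 around 16 in early spermatocytes, 42 to 128 around 42 in elongating spermatids, 47 to 144 around 53 in late spermatocytes, 58 to 183 around 64 in round spermatids, 26 to 237 around 26 in spermatogonia and 188 to 1927 around 194 in myoid cells, each highest with no minimum CPM. The cause was not tested for settings not explained here. No paired analysis was possible because the knockout group is 1 library that pools 2 mice. The 14 to 51 deep Sertoli cells per library limit what can be seen there.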

Other observations

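A cluster of 98 deep barcodes (23, 15 and 60) was led by Defb36 and left unnamed. It held members of both groups at once, with 1710 ± 178 CPM of Cst8, 811 ± 77.9 of Cstl1, 1528 ± 269 of Defb19, 660 ± 200 of Cst12, 480 ± 156 of Cst9 and 451 ± 100 of Defb36 (SD, n = 3 libraries). Markers of elongating spermatids summed to 215339 to 283657 CPM there and Sertoli markers to 878 to 1491 CPM. Defb36 gave 0.53 to 1.18 UMIs per UMI of Cst12 in these barcodes, against 0.17 to 0.19 in deep Sertoli cells.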
